A study of Mus musculus with 6 samples.

Results

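The genes described here are 9 that stood much higher in mouse pancreatic tumours of the cell line UN-KC-6141 (UNKC tumours) than in those of the line PANC02-H7 (H7 tumours): Crisp1, Slc5a7, Klhl1, Acsbg1, Tmeff2, Lad1, Spats2l, Dsel and Tmcc2. They are 9 of 27179 gene IDs counted. They were chosen by name for that difference, with no numerical limit, and they are not all genes of this kind. In the comparison of UNKC with H7 tumours, 919 tested genes had a larger log2 difference than the smallest of the 9 (2.81), and 349 genes outside the set did so with at least 5 CPM in UNKC tumours. The difference between the tumours is therefore how the genes were picked, and it is given below as a description with no test.

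RNA was sequenced from UNKC tumours, H7 tumours and normal whole pancreas of C57BL/6 mice, with 2 samples in each group. Both are mouse pancreatic carcinoma lines, and each tumour group stands for a single line. Cells were placed surgically in the pancreas of C57BL/6 hosts, and the tumours were removed on day 20. The mice had no treatment, and the labels give no age, sex or genotype beyond the strain, nor which mouse a sample came from, so the p-values measure only the spread between these samples. A tumour sample holds host cells as well as cells of the injected line, and in such bulk RNA fewer cells of a type and less RNA per cell cannot be told apart.

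UNKC libraries held 40507546 and 38728423 reads in genes, H7 libraries 33332516 and 36307030, and normal libraries 12077320 and 8204225. The share of ribosomal RNA was 21.2% and 20.1% in UNKC, 27.8% and 24.6% in H7 and 86.4% and 85.0% in normal libraries, which left a tested gene with a median of 609 and 625.5 reads in UNKC, 460 and 527 in H7 and 11 and 12 in normal libraries. Levels are given as CPM, reads scaled to the effective library size, and small counts in normal pancreas limit the comparisons of genes with few reads there. Skeletal muscle genes (9 markers) summed to 1.04 and 2311 CPM in UNKC replicates 1 and 2, to 1.40 and 631 CPM in H7 replicates 1 and 2, and to 7.41 and 2.39 CPM in normal pancreas. Replicate 2 of each tumour therefore stands apart in muscle RNA. Acinar markers (5 genes) summed to 9.68 and 3.37 CPM in UNKC tumours and to 26.8 and 33.2 CPM in H7 tumours, against 8433 and 8144 CPM in normal pancreas.

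The 9 genes belong to no single pathway. Crisp1 encodes a secreted protein of the CAP family that the epididymis makes and that binds to sperm. Slc5a7 encodes the high-affinity choline transporter with which cholinergic nerve endings take up choline for acetylcholine, and Klhl1 encodes a brain protein with Kelch repeats that binds actin. Acsbg1 encodes an acyl-CoA synthetase of brain, adrenal gland and testis that activates long fatty acids, and Tmeff2 encodes a membrane protein with an EGF-like and follistatin domains, known from brain and prostate. Lad1 encodes ladinin, an anchoring filament protein of epithelial basement membranes. Spats2l encodes an RNA-associated protein of stress granules and nucleoli, Dsel a relative of the epimerase that turns chondroitin sulfate into dermatan sulfate, and Tmcc2 a coiled-coil protein of the endoplasmic reticulum that binds apolipoprotein E.

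The sequence before the annotated start is shown for 4 of the genes, namely the 3 that were nearly absent from H7 tumours (Crisp1, Slc5a7 and Klhl1) and, for contrast, Dsel, which was detected in every library. Each is 250 bases of the coding strand, 5′ to 3′, ending just before the start that RefSeq gives on GRCm38.p6. Capitals mark matches on either strand to TATAAA, the core of the TATA box, or to GGGCGG, the GC box, and where such matches overlap both are in capitals.
Crisp1, chr17:40319208-40319457, minus strand: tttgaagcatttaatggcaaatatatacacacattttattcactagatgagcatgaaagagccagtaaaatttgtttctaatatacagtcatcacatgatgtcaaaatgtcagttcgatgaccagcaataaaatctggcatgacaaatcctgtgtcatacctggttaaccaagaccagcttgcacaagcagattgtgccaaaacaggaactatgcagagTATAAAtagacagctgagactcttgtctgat
Slc5a7, chr17:54299035-54299284, minus strand: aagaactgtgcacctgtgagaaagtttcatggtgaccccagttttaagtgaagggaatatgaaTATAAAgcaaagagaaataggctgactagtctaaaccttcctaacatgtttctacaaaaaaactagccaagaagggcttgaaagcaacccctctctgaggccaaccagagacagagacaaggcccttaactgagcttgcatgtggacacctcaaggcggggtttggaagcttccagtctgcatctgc
Klhl1, chr14:96519035-96519284, minus strand: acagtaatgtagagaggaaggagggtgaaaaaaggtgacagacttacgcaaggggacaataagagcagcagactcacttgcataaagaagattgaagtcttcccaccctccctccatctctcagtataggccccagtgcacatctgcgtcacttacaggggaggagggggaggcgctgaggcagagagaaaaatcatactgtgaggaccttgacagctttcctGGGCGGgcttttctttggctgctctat
Dsel, chr1:111864919-111865168, minus strand: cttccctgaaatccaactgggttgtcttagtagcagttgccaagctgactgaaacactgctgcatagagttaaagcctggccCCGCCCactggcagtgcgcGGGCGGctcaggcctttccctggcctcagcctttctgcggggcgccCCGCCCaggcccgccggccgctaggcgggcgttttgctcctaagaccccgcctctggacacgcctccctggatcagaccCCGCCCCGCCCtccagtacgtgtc

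A TATAAA match began 31 bases before the start of Crisp1 and 187 bases before that of Slc5a7, so 2 of the 9 genes had one, and 12.4% of 32851 promoters of this length did. GGGCGG was found in Klhl1, Tmeff2, Dsel and Tmcc2 (4 of 9, against 32.7% of all promoters), with 1 match 27 bases before the start of Klhl1 and 5 matches in Dsel. CCAAT occurred in Acsbg1 and Tmeff2 (33.8% of all promoters) and CACGTG in Tmeff2 (6.02%). These counts, and those of CG below, use window 1 of each gene. Tmcc2 also has windows 2 and 3, with 6 and 2 CG dinucleotides, and window 2 held a CCAAT match. The windows used for Tmeff2 (chr1:50927273-50927522), Spats2l (chr1:57845321-57845570) and Tmcc2 (chr1:132391387-132391636) lie inside the gene spans given below. The window of Dsel (chr1:111864919-111865168) lies partly inside its span, and that of Slc5a7 overlaps its span by a few bases. In Dsel the GGGCGG matches that begin 103, 24 and 19 bases before the start fall inside the span. Neither TGANTCA (6.75% of all promoters) nor TGACGTCA (1.55%) occurred before any of the 9 starts, which says only that these letters are not in these windows. The number of CG dinucleotides split the genes: 1 in each of Crisp1, Slc5a7 and Acsbg1, 4 in each of Klhl1 and Spats2l, 11 in Lad1, 16 in Tmeff2, 17 in Dsel and 28 in Tmcc2, beside a median of 6 over all promoters. The 3 genes nearly absent from H7 tumours had 4 or fewer, as did Acsbg1 and Spats2l, which were detected there. Such numbers are common: 37.8% of all promoters had fewer than 4 and 49.6% fewer than 6.

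Crisp1 (gene ID 11571) was the most abundant of the 9. It had 28963 and 21381 reads in UNKC tumours, 6 and 8 reads in H7 tumours and 2 and 6 reads in normal pancreas. These are 320.8 and 250.4 CPM in UNKC tumours, 0.0869 and 0.103 CPM in H7 tumours, and 0.926 and 2.86 CPM in normal pancreas. Per kilobase of transcript the UNKC level averaged 202 CPM, higher than that of 99.7% of tested genes and rank 49 in the library. UNKC tumours exceeded H7 tumours by a fitted log2 difference of 11.52, and the ratio of their mean CPM was 3013, with a 95% counting interval of 1460 to 7482. Against normal pancreas Crisp1 rose in UNKC tumours, with a log2 fold change of 7.24 ± 0.38 (SE; edgeR adjusted p = 0.000149), with a counting interval of 59.5-fold to 559.6-fold. The H7 value lay below normal pancreas (log2 fold change -4.27 ± 0.57, adjusted p = 0.00166), with 14 reads in H7 tumours and 8 in normal pancreas. Crisp1 could be tested here only because the UNKC libraries carried it past the filter on low counts, and when libraries were scaled to their total counts the change was -1.01 (adjusted p = 0.187).

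Other genes of the Crisp group were scarce. Crisp3, the nearest relative in sequence, had 18 and 6 reads in UNKC tumours and no read in H7 tumours or normal pancreas. Of the 50-base stretches in Crisp1 transcripts 2.41% also occur in Crisp3, and no other gene shares any, so the few Crisp3 reads are uncertain. Crisp2, a testis gene, had no read in UNKC tumours, 2 and 1 reads in H7 tumours and none in normal pancreas, and Crisp4, another epididymal gene, had no read in any library. The 5 epididymis markers summed to 0.0665 and 0.0117 CPM in UNKC tumours, 0 and 0.0642 CPM in H7 tumours, and 1.39 and 0 CPM in normal pancreas, with Crisp4, Lcn5 and Spink8 at 0 in both UNKC libraries.

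Slc5a7 (gene ID 63993) was read almost only in UNKC tumours. It had 3280 and 2758 reads in UNKC tumours, 1 and 0 reads in H7 tumours and none in normal pancreas. The UNKC levels were 36.3 and 32.3 CPM, and the single H7 read amounted to 0.0145 CPM. The tumours differed by a fitted log2 difference of 11.88, or 13.78 without H7 replicate 1 and 10.98 without H7 replicate 2. The ratio of mean CPM, 4739, rests on 1 read in H7 tumours and has a counting interval of 453 to 99779. Against a floor of 3 read pairs over both normal libraries (1.41 CPM) Slc5a7 was at least 24.3-fold higher in UNKC tumours (edgeR adjusted p = 0.000423). No fold of H7 tumours over normal pancreas is given, since both groups were under the floor.

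Klhl1 (gene ID 93688) followed the same layout with more spread between the UNKC samples. It had 3791 and 1940 reads in UNKC tumours, 2 and 0 reads in H7 tumours and none in normal pancreas. The UNKC levels were 42.0 and 22.7 CPM, so replicate 1 was 1.85-fold above replicate 2, the widest replicate ratio of the 9. The tumours differed by a fitted log2 difference of 10.99, or 13.70 without H7 replicate 1 and 10.005 without H7 replicate 2. The ratio of mean CPM, 2234, rests on 2 reads in H7 tumours and has a counting interval of 430 to 94724. Klhl1 was at least 23.0-fold higher in UNKC tumours than in normal pancreas (edgeR adjusted p = 0.00138). Crisp1, Slc5a7 and Klhl1 passed the filter on low counts only through the UNKC libraries, so their difference from the other groups was a condition of being tested. The other 6 genes would have passed in the H7 and normal libraries alone.

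Since Slc5a7 and Klhl1 are known from neurons, 13 markers of neurons and nerve fibres were summed. The sum was 30.1 and 24.7 CPM in UNKC tumours and 1.23 and 2.61 CPM in H7 tumours, against 11.1 and 6.68 CPM in normal pancreas. Tubb3, a neuronal beta-tubulin, made up 24.4 and 18.8 CPM of the UNKC sums, against 0.811 and 1.502 CPM in H7 tumours and 0.926 and 0.954 CPM in normal pancreas. Uchl1, a neuronal hydrolase gene, had 2.09 and 3.45 CPM in UNKC tumours and 0.0290 and 0.411 CPM in H7 tumours, against 0.926 and 0 CPM in normal pancreas. Gap43, a growth cone gene, had 1.06 and 1.03 CPM in UNKC tumours and 0 and 0.231 CPM in H7 tumours, against 0 and 0.954 CPM in normal pancreas. Nefl, a neurofilament gene, had 0.919 and 0.445 CPM in UNKC tumours and no read elsewhere. Snap25 and Elavl4 went the other way against normal pancreas. Snap25 had 0.709 and 0.0937 CPM in UNKC and 0 and 0.0385 CPM in H7 tumours, against 1.85 and 3.82 CPM in normal pancreas (4 and 8 reads). Elavl4 had 0.0443 and 0.0234 CPM in UNKC and 0.0579 and 0.0257 CPM in H7 tumours, against 2.31 and 0.954 CPM in normal pancreas (5 and 2 reads). Nefm, Chat and Slc18a3 were among the markers at 0 in both UNKC libraries. Chat, which makes acetylcholine, had no read in UNKC tumours, 1 and 0 reads in H7 tumours and 2 and 0 reads in normal pancreas, and Slc18a3, the vesicular acetylcholine transporter, had no read in any library. Schwann cell markers (5 genes) summed to 14.4 and 19.5 CPM in UNKC tumours, 23.9 and 26.9 CPM in H7 tumours, and 31.0 and 24.3 CPM in normal pancreas. The part of nerve tissue in the levels of Slc5a7 and Klhl1 was not tested beyond these values.

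Acsbg1 (gene ID 94180) was the only gene of the 9 that was clearly present in H7 tumours and above normal pancreas there. It had 42.4 and 36.9 CPM in UNKC tumours and 5.91 and 5.40 CPM in H7 tumours (408 and 421 reads), and no read in normal pancreas. Its difference between the tumours, 2.81 on the log2 scale or 7.01-fold, was the smallest of the 9. UNKC tumours were at least 28.1-fold higher than normal pancreas (edgeR adjusted p = 0.000184) and H7 tumours at least 4.01-fold higher (adjusted p = 0.000687). The relative Acsbg2 had 1 read in all libraries together. Acsbg3 had 0.0775 and 0.141 CPM in UNKC tumours and 0.304 and 0.231 CPM in H7 tumours, against 1.39 and 0 CPM in normal pancreas, and its difference between the tumours did not pass (log2 fold change -1.28, adjusted p = 0.275). Markers of other cell types in which Acsbg1 is known were also summed. Astrocyte markers (4 genes) summed to 6.21 and 6.43 CPM in UNKC tumours, 2.39 and 1.42 CPM in H7 tumours, and 26.8 and 22.9 CPM in normal pancreas. Slc1a3 made up 18.5 and 21.0 CPM of the normal sums, while Slc1a2, another glutamate transporter gene, had 5.72 and 4.81 CPM in UNKC tumours and 0.116 and 0.205 CPM in H7 tumours, against 3.70 and 0.954 CPM in normal pancreas. Adrenal cortex markers (5 genes) summed to 4.20 and 5.86 CPM in UNKC tumours, 2.00 and 2.58 CPM in H7 tumours, and 9.72 and 9.54 CPM in normal pancreas, most of it Star in every library. The part of these cell types in the level of Acsbg1 was not tested.

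**Figure D1:**
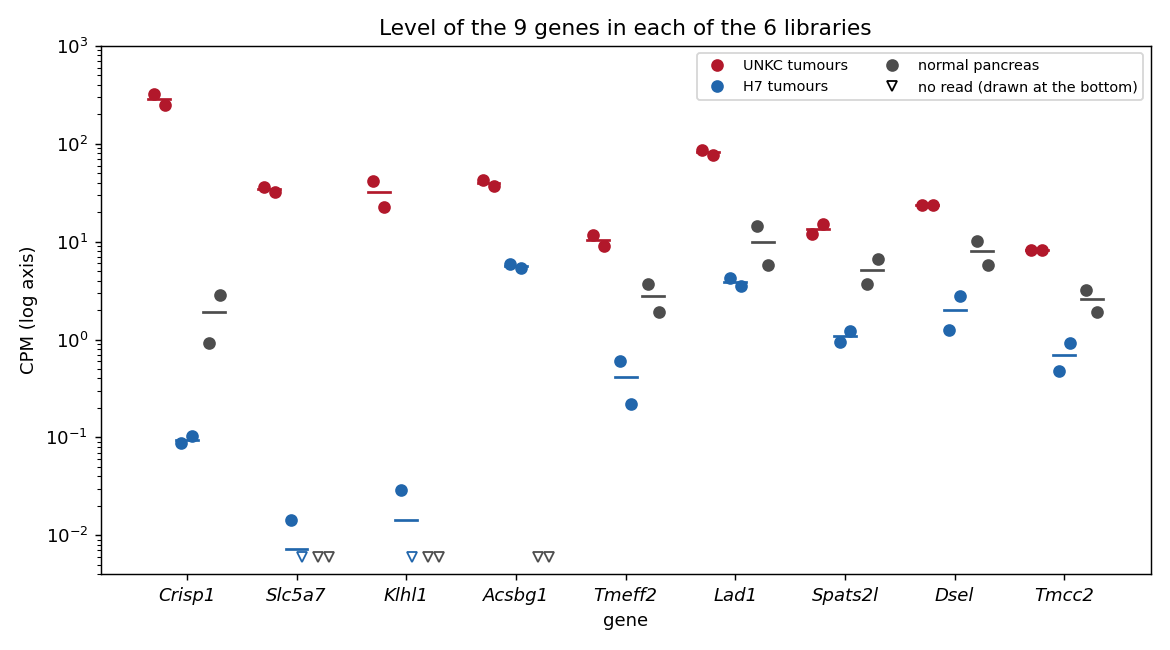
Level of each of the 9 genes in CPM on a log axis in the 2 UNKC tumours, 2 H7 tumours and 2 normal pancreas libraries, with a bar at each group's mean and open triangles at the bottom for libraries with no read. Both UNKC points lie above all other points for every gene, which for the H7 points is how the genes were chosen and which for the normal points holds for 48.3% of all tested genes, and Acsbg1 is the only gene whose H7 points, at 5.91 and 5.40 CPM, lie above its normal ones.

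The other 5 genes, Lad1, Tmeff2, Spats2l, Dsel and Tmcc2, were detected in every library, and on the scale used here their order was UNKC tumours, normal pancreas, H7 tumours, while with total-count scaling all 5 lay higher in H7 tumours than in normal pancreas. Lad1 (gene ID 16763) had 87.4 and 77.2 CPM in UNKC tumours and 4.29 and 3.53 CPM in H7 tumours, against 14.3 and 5.73 CPM in normal pancreas. It was the second most abundant of the 9 per kilobase of transcript (27.5 CPM in UNKC tumours, higher than 95.1% of tested genes). UNKC tumours were higher than normal pancreas (log2 fold change 3.03 ± 0.38, edgeR adjusted p = 0.00139). H7 tumours were lower by -1.36 ± 0.38 (adjusted p = 0.0258), a call that was lost without H7 replicate 1, H7 replicate 2, UNKC replicate 1 or normal replicate 1 (adjusted p up to 0.128) and that turned to 2.00 with total-count scaling. Epithelial markers (6 genes, Krt8, Krt18, Krt19, Krt7, Epcam and Cdh1) had the same order of tumours, with sums of 1140 and 952 CPM in UNKC tumours and 395 and 382 CPM in H7 tumours, against 222 and 159 CPM in normal pancreas, and their part in the level of Lad1 was not tested.

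Tmeff2 (gene ID 56363) had 11.7 and 9.05 CPM in UNKC tumours and 0.608 and 0.218 CPM in H7 tumours, against 3.70 and 1.91 CPM in normal pancreas, where these were 8 and 4 reads. Its log2 fold change over normal pancreas was 1.88 ± 0.61 in UNKC tumours (edgeR adjusted p = 0.0459), the value closest to the threshold. That call was lost in 6 of 16 alternatives, with an adjusted p of up to 0.168, among them leaving out UNKC replicate 1, UNKC replicate 2, normal replicate 1 or normal replicate 2. In H7 tumours it was -2.78 ± 0.75 (adjusted p = 0.0236), lost without normal replicate 1 (adjusted p = 0.167) and at 0.55 with total-count scaling. Tmeff1, its relative, had 1.73 and 2.01 CPM in UNKC tumours and 0.319 and 0.693 CPM in H7 tumours, against 5.09 and 3.82 CPM in normal pancreas. It was higher in UNKC than in H7 tumours by 1.87 ± 0.44 (adjusted p = 0.0350).

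Spats2l (gene ID 67198) had 11.9 and 15.0 CPM in UNKC tumours and 0.941 and 1.22 CPM in H7 tumours, against 3.70 and 6.68 CPM in normal pancreas. Both UNKC values lay above both normal values for all 9 genes, as for 48.3% of tested genes. Both H7 values lay below both normal values for 6 of the 9, as for 29.9% of tested genes. Spats2l is among these 6, so its groups did not overlap. UNKC tumours exceeded normal pancreas (log2 fold change 1.37 ± 0.35, edgeR adjusted p = 0.0203; 0.0844 without UNKC replicate 2). H7 tumours lay below normal pancreas by -2.26 ± 0.39 (adjusted p = 0.00436), and at 1.01 with total-count scaling. Its relative Spats2 differed between the tumours in the other direction, with 13.9 and 13.7 CPM in UNKC and 21.0 and 22.0 CPM in H7 tumours. Normal pancreas had 4.63 and 5.25 CPM of Spats2. Its log2 fold change of UNKC over H7 tumours was -0.65 ± 0.15 (edgeR adjusted p = 0.0352), a call lost when any 1 tumour library was left out.

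Dsel (gene ID 319901) was even between the UNKC samples, at 23.7 and 23.9 CPM, while the H7 samples held 1.25 and 2.77 CPM and normal pancreas 10.2 and 5.73 CPM. The log2 fold change over normal pancreas was 1.58 ± 0.46 in UNKC tumours (edgeR adjusted p = 0.0324), lost in 5 of 16 alternatives (adjusted p up to 0.130), among them leaving out UNKC replicate 1, UNKC replicate 2 or normal replicate 2. It was -1.98 ± 0.49 in H7 tumours (adjusted p = 0.0167), lost without normal replicate 1 (adjusted p = 0.115) and at 1.36 with total-count scaling. Dse, the better known epimerase of the pair, had 26.4 and 25.6 CPM in UNKC tumours and 25.7 and 27.5 CPM in H7 tumours, against 3.70 and 9.54 CPM in normal pancreas. The difference of Dse between the tumours was -0.04 ± 0.29 (adjusted p = 0.957).

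Tmcc2 (gene ID 68875) had 8.24 and 8.21 CPM in UNKC tumours and 0.478 and 0.911 CPM in H7 tumours, against 3.24 and 1.91 CPM in normal pancreas (7 and 4 reads). UNKC tumours exceeded normal pancreas (log2 fold change 1.67 ± 0.49, edgeR adjusted p = 0.0321), lost in 5 of 16 alternatives (adjusted p up to 0.103), among them leaving out UNKC replicate 1, UNKC replicate 2 or normal replicate 2. H7 tumours lay below by -1.88 ± 0.57 (adjusted p = 0.0347), lost in 7 of 16 alternatives (adjusted p up to 0.179), among them leaving out UNKC replicate 1, UNKC replicate 2, H7 replicate 1 or normal replicate 1, and at 1.44 with total-count scaling. Its relatives did not pass between the tumours, Tmcc1 at 11.0 and 12.2 CPM in UNKC and 17.2 and 13.6 CPM in H7 tumours (log2 fold change -0.41 ± 0.18, adjusted p = 0.176). Tmcc3 had 18.9 and 18.5 CPM in UNKC and 14.4 and 12.99 CPM in H7 tumours (0.45 ± 0.15, adjusted p = 0.0907). Of the exonic bases of Tmcc2, 53 of 5692 overlap the antisense gene Gm15849, and since the strand of the counting is not given, reads there cannot be assigned to either.

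Set side by side, all 9 genes were higher in UNKC tumours than in normal pancreas, where 29.1% of the 16306 tested genes were higher and 19.3% lower by the same rule (edgeR, adjusted p under 0.05). Their median log2 fold change was 3.03, also with Slc5a7, Klhl1 and Acsbg1 at their lower bounds, beside 0.42 for all tested genes. With upper-quartile scaling 5 of the 9 passed (Crisp1, Slc5a7, Klhl1, Acsbg1 and Lad1). Without UNKC replicate 2, which held muscle RNA, the log2 fold changes of Tmeff2, Spats2l, Dsel and Tmcc2 were 2.08, 1.22, 1.59 and 1.70. Without UNKC replicate 1, which held little, they were 1.71, 1.56, 1.61 and 1.69. As given above, none of these genes kept its call without UNKC replicate 2, and most also lost it without UNKC replicate 1. In H7 tumours 1 of the 9 was higher than normal pancreas (Acsbg1; 29.6% of tested genes were higher) and 6 were lower (Crisp1, Tmeff2, Lad1, Spats2l, Dsel and Tmcc2; 21.9% of tested genes were lower), but with total-count scaling none was lower and 5 of these 6 changed sign. In a fit of the H7 and normal libraries alone Crisp1 was not tested and 4 of the 9 were lower. Total-count scaling put the median of all genes at 3.61 in H7 tumours over normal pancreas, and the values of those 5, from 0.55 to 2.00, lay below that median. Without normal replicate 1, 2 of the 6 stayed past the threshold (Crisp1 and Spats2l). The tumour libraries took part in the choice of the 9 genes and the comparisons share the normal libraries, so these counts do not stand for an independent test of the set.

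**Figure D2:**
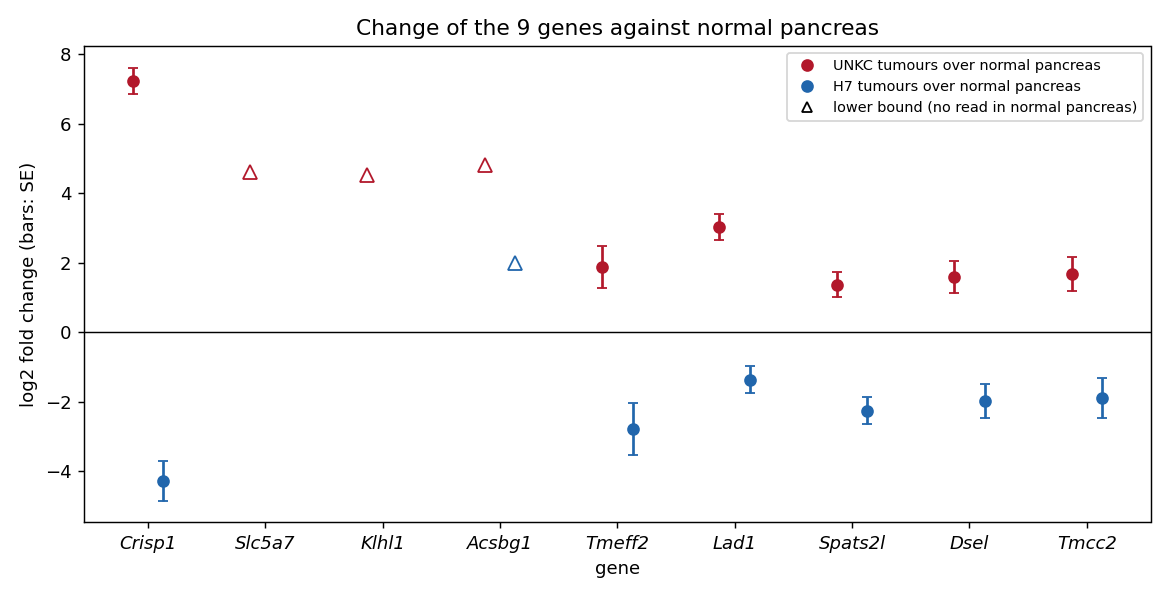
Log2 fold change of the 9 genes in UNKC tumours and in H7 tumours over normal pancreas (points with SE, 2 samples a group; open triangles are lower bounds where normal pancreas had no read, and Slc5a7 and Klhl1 have no H7 value). All UNKC points lie above 0, and the 6 H7 points below 0 are those of Crisp1, Tmeff2, Lad1, Spats2l, Dsel and Tmcc2, of which the last 5 lie above 0, between 0.55 and 2.00, when libraries are scaled to total counts.

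The authors' deposited table of UNKC tumours and normal pancreas lists all 9 genes, with log2 fold changes from 1.02 (Spats2l) to 7.63 (Acsbg1), of which 8 had an adjusted p under 0.05. The exception in the authors' deposited table was Tmcc2, at 1.13 with an adjusted p of 0.0621. The authors' deposited table of H7 tumours and normal pancreas lists 7 of the 9, with Acsbg1 higher (3.96) and 5 lower at an adjusted p under 0.05, from Crisp1 at -3.76 to Lad1 at -1.32, while Tmcc2 at -1.48 had an adjusted p of 0.0503. By TPM in the authors' deposited table, both H7 values exceeded both normal values for Acsbg1, Lad1, Spats2l, Dsel and Tmcc2. For Acsbg1 this is the direction of its fold change. For Lad1, Spats2l, Dsel and Tmcc2 the TPM values run the other way. Lad1, for example, stood at 6.17 and 5.05 TPM in H7 tumours and at 1.90 and 0.820 TPM in normal pancreas in the authors' deposited table, beside its negative fold change there.

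Within UNKC tumours, the levels per kilobase of transcript ran from Crisp1 (202 CPM per kilobase) and Lad1 (27.5) over Acsbg1 (14.3), Klhl1 (7.99), Slc5a7 (6.62) and Dsel (4.13) to Spats2l (3.32), Tmeff2 (3.11) and Tmcc2 (2.41). Tmcc2 was thus above 46.5% of tested genes and Crisp1 above 99.7%. Of the 9 genes 7 were higher in UNKC replicate 1 than in replicate 2, while Spats2l and Dsel were not. Tmcc2, among these 7, was nearly even at 8.24 and 8.21 CPM, and the share over all tested genes was not counted. The 6 erythroid markers measured also differed between these samples, at 18.7 and 3.07 CPM in UNKC replicates 1 and 2, against 1.74 and 0.757 CPM in H7 tumours and 10.6 and 24.8 CPM in normal pancreas, and their part in the levels of the 9 genes was not tested. Islet markers (4 genes) summed to 37.0 and 12.4 CPM in UNKC tumours, 9.67 and 58.998 CPM in H7 tumours, and 522.6 and 228 CPM in normal pancreas. Leukocyte markers (4 genes) summed to 81.0 and 86.1 CPM in UNKC tumours, 118 and 113 CPM in H7 tumours, and 54.2 and 70.6 CPM in normal pancreas.

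The genes lie on 4 chromosomes of GRCm38, and 5 of the 9 lie on chromosome 1, which holds 5.88% of tested genes. These are Tmeff2 (chr1:50900683-51187270), Spats2l (chr1:57774102-57948398), Dsel (chr1:111858701-111865052), Tmcc2 (chr1:132356315-132391923) and Lad1 (chr1:135818598-135833341). Crisp1 (chr17:40293758-40319207) and Slc5a7 (chr17:54273590-54299038) share chromosome 17, Klhl1 (chr14:96105265-96519034) lies on chromosome 14 and Acsbg1 (chr9:54604886-54661885) on chromosome 9. Chromosome 1 as a whole stood close to the other chromosomes. The median log2 difference of UNKC minus H7 tumours over its 958 tested genes was -0.04, beside 0.02 for all genes, and 12.1% of them were higher and 9.39% lower in UNKC than in H7 tumours, beside 11.1% and 7.06% of all tested genes. Those shares stand for 1808 and 1152 genes, and single libraries weigh on them, with 1172 and 552 genes called without UNKC replicate 2, 956 and 376 without UNKC replicate 1, 754 and 406 without H7 replicate 2 and 378 and 184 without H7 replicate 1. The medians of chromosomes 9, 14 and 17 were 0.10, 0.10 and -0.23, and over genes with at least 5 CPM in a tumour group the medians of chromosomes 1, 9, 14 and 17 were -0.07, 0.06, 0.05 and -0.26.

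**Figure D3:**
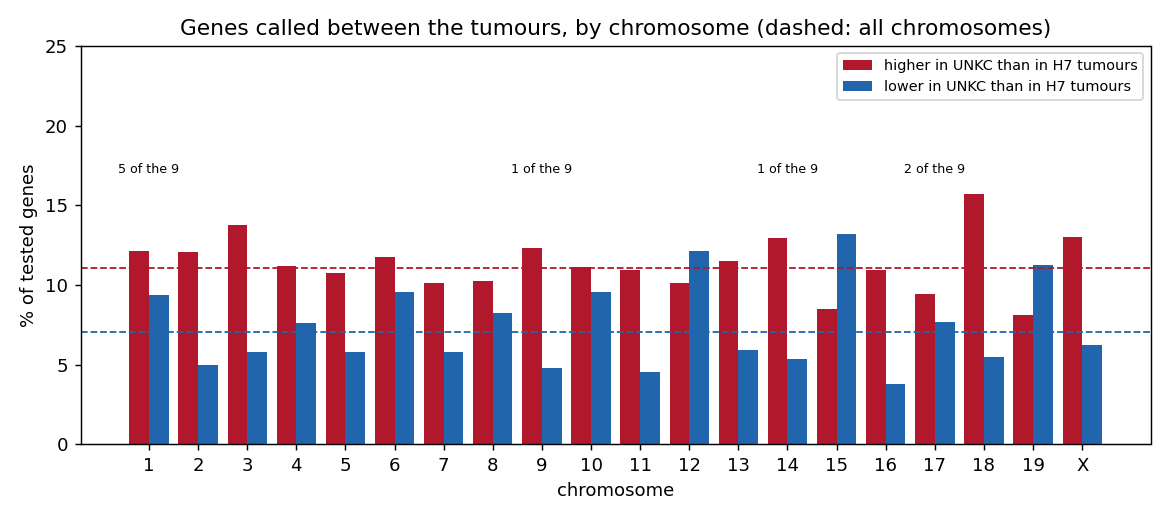
Share of tested genes on each chromosome that were higher (red) or lower (blue) in UNKC than in H7 tumours (edgeR, adjusted p under 0.05), with dashed lines at the shares over all tested genes, 11.1% and 7.06%, and the number of the 9 genes written above their chromosomes. Chromosome 1, with 5 of the 9, stands at 12.1% and 9.39%.

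Of the 112 tested genes within 1 Mb of the starts of the 9, 19 were higher and 6 lower in UNKC than in H7 tumours, beside 11.1% and 7.06% of all tested genes. Of these 25 calls, 15 were left without UNKC replicate 2, 10 without UNKC replicate 1, 8 without H7 replicate 2 and 6 without H7 replicate 1. Within 1 Mb of the start, 2 of 4 tested genes near Crisp1, 4 of 21 near Acsbg1, 1 of 3 near Tmeff2, 4 of 30 near Lad1 and 8 of 26 near Tmcc2 were higher in UNKC than in H7 tumours. None of the 6 genes near Slc5a7, of the 21 near Spats2l or of the 1 near Dsel was called in either direction by edgeR at an adjusted p under 0.05, and no tested gene lay within 1 Mb of Klhl1. Lower calls numbered 2 near Acsbg1, 1 near Tmeff2, 2 near Lad1 and 1 near Tmcc2. The neighbours of Spats2l, Maip1 at 356 kb and Kctd18 at 6.70 kb, differed by -0.10 and -0.22 (adjusted p = 0.866 and 0.589).

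Tnnt2, cardiac troponin T, begins 2.97 kb after the end of Lad1 and had 108 and 85.3 CPM in UNKC tumours and 0.753 and 1.73 CPM in H7 tumours, against 0.926 and 0.954 CPM in normal pancreas (log2 fold change of UNKC over H7 tumours 6.27 ± 0.42, edgeR adjusted p = 0.000696). Unlike the muscle markers it was as high in UNKC replicate 1 as in replicate 2. Tnni1, a troponin of slow muscle on the other side of Lad1 (7.61 kb), had 0.487 and 7.01 CPM in UNKC tumours and 0.159 and 2.08 CPM in H7 tumours, and none in normal pancreas, so it was high in replicate 2 of both tumours (adjusted p = 0.512). Pcdh9, a protocadherin 2212 kb before Klhl1, had 8.85 and 8.20 CPM in UNKC tumours and 0.0869 and 0.103 CPM in H7 tumours, against 1.85 and 1.91 CPM in normal pancreas (6.45 ± 0.31, adjusted p = 0.00042). Dach1, 1268 kb away on the other side, differed by 1.07 ± 0.56 (adjusted p = 0.261). The calls of Tnnt2 and Pcdh9, like those of Dnaja4 and Cavin2 given next, held without any single tumour library.

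Beside Acsbg1, Dnaja4, a co-chaperone gene 37.0 kb away, was higher in UNKC than in H7 tumours by 3.02 ± 0.49 (edgeR adjusted p = 0.0107). Idh3a, only 0.224 kb from Acsbg1 on the other side, had 25.4 and 28.5 CPM in UNKC tumours and 24.1 and 30.3 CPM in H7 tumours (-0.02 ± 0.23, adjusted p = 0.976). Cavin2, 102 kb after Tmeff2, moved against it, with 58.3 and 60.9 CPM in UNKC tumours and 208 and 276 CPM in H7 tumours (-2.02 ± 0.18, adjusted p = 0.0019), and Slc39a10, 3975 kb before it, differed by 0.18 (adjusted p = 0.518). Rhag, an erythroid gene 492 kb after Crisp1, had 0.620 and 0.340 CPM in UNKC tumours and 0.0434 and 0.0128 CPM in H7 tumours. Its log2 difference was 4.03 ± 0.85 (edgeR adjusted p = 0.015), a call lost without UNKC replicate 1, H7 replicate 1 or H7 replicate 2. With 1 tumour library left out, the difference of Rhag ran from 3.39 to 4.97. H2-M2, 2810 kb before Crisp1, differed by 1.69 (edgeR adjusted p = 0.127). Nuak2 beside Tmcc2 was higher by 1.12 ± 0.24 (edgeR adjusted p = 0.0276), a call lost when any 1 tumour library was left out. The difference of Nuak2 then ran from 0.98 to 1.23. Dstyk on the other side of Tmcc2 differed by -0.09 (edgeR adjusted p = 0.72). For Sult1c2 and Pot1b, the nearest tested genes to Slc5a7 at 428 kb and 1352 kb, the differences were 2.06 (adjusted p = 0.0512) and -0.28 (adjusted p = 0.429), and for Cdh19 and Tsn, the nearest to Dsel at 881 kb and 6433 kb, 1.17 (adjusted p = 0.624) and 0.12 (adjusted p = 0.647).

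**Figure D4:**
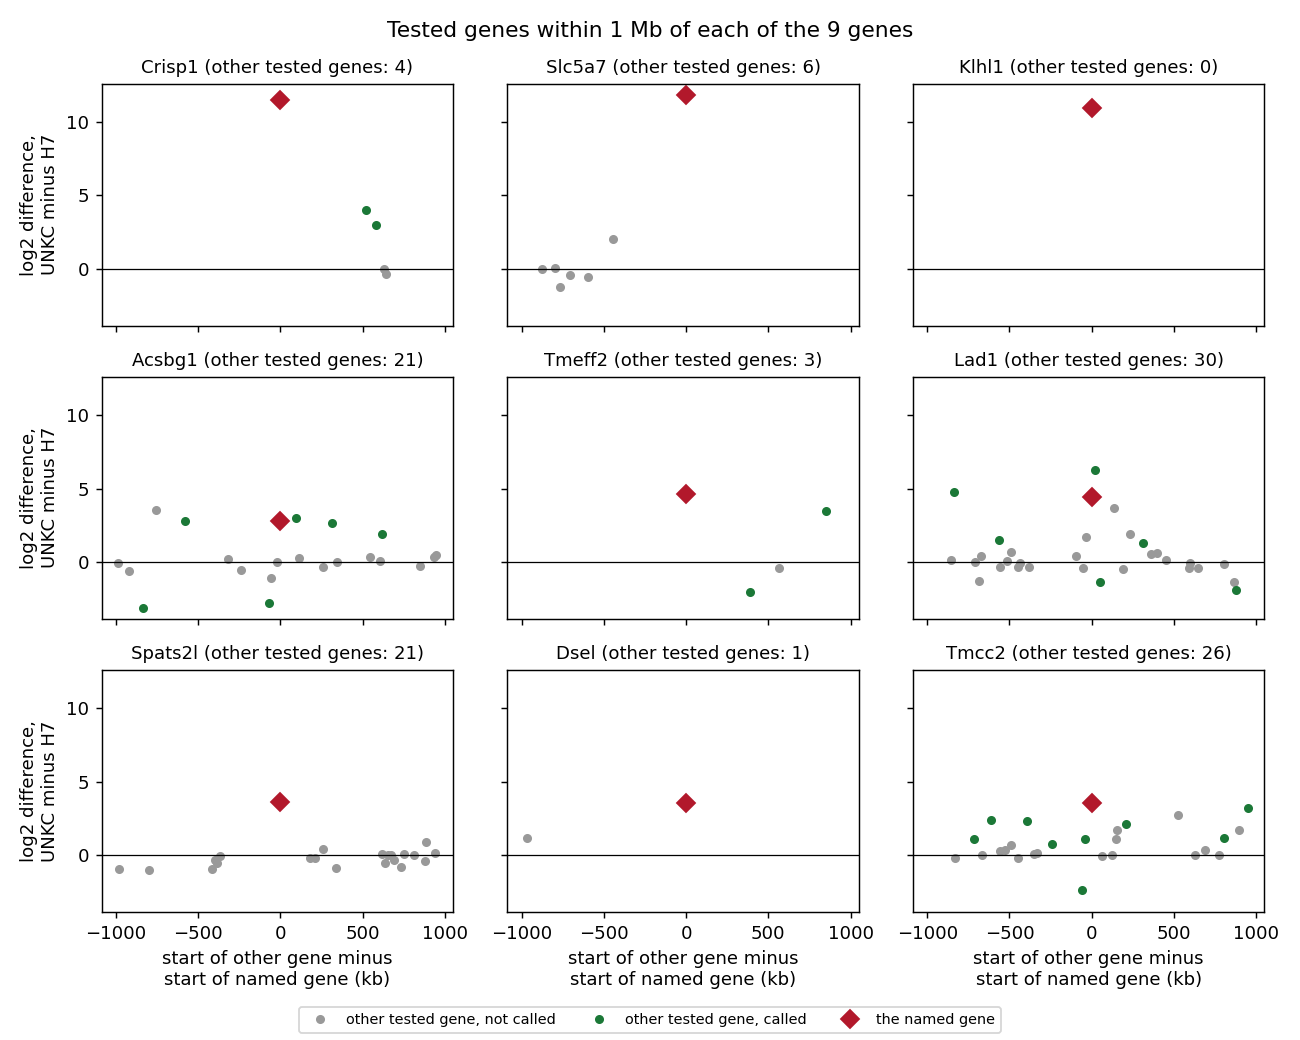
Log2 difference of UNKC minus H7 tumours for each of the 9 genes (red diamonds, no test) and for the tested genes whose start lies within 1 Mb (green where edgeR's adjusted p was under 0.05, grey otherwise), by distance of the starts in kb. Most neighbours are grey, and Tnnt2 beside Lad1, at 6.27, is the neighbour with the largest difference.

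Gene groups related to each of the 9 were counted without the 9 themselves. In none were most of the tested genes called higher in UNKC than in H7 tumours (edgeR, adjusted p under 0.05). The group medians, given below, were positive in some groups and negative in others. Over the 9 groups 34 genes were called, of which 24 were left without UNKC replicate 2, 18 without UNKC replicate 1, 16 without H7 replicate 2 and 11 without H7 replicate 1. Of the 13 genes given below with values for the largest rise or fall, Glipr2, Pi15, Klhl22, Fst and Lamb3 kept their call without any single tumour library. The comparison is UNKC over H7 tumours, in which 11.1% of tested genes were higher and 7.06% lower and the median of all was 0.02. Of 7 tested CAP family genes 1 was higher and 1 lower (median 0.36). Glipr2, a Golgi-associated member, had 26.0 and 24.6 CPM in UNKC tumours and 1.49 and 3.12 CPM in H7 tumours (log2 fold change 3.45 ± 0.38, edgeR adjusted p = 0.00315). Pi15, a secreted member, had 0.930 and 0.749 CPM in UNKC tumours and 25.01 and 23.8 CPM in H7 tumours (-4.86 ± 0.37, adjusted p = 0.00125). The family thus held members far higher in each of the tumours.

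Around Slc5a7, 13 genes of choline and acetylcholine handling were tested, of which 3 were higher (Bche, Slc44a2 and Slc44a3) and 1 lower (Slc44a1), with a median of 0.34. Bche, butyrylcholinesterase, had 7.62 and 3.84 CPM in UNKC tumours and 1.59 and 0.745 CPM in H7 tumours (log2 fold change 2.30 ± 0.50, edgeR adjusted p = 0.0286). Slc44a1, a choline transporter found in most cells, had 30.9 and 30.8 CPM in UNKC tumours and 52.7 and 58.9 CPM in H7 tumours (-0.85 ± 0.18, adjusted p = 0.0262). Around Klhl1, 4 of 37 KLHL adaptor and CUL3 ligase genes were higher and 2 lower (median 0.20). Klhl22 had 15.2 and 14.7 CPM in UNKC tumours and 1.62 and 1.72 CPM in H7 tumours (3.16 ± 0.24, adjusted p = 0.00121), and Klhl9 had 103 and 94.0 CPM in UNKC and 201 and 170 CPM in H7 tumours (-0.91 ± 0.14, adjusted p = 0.00832). The closest relatives of Klhl1 were Klhl4, higher by 2.11 ± 0.56 (adjusted p = 0.04996), and Klhl5, at 9.06 and 10.5 CPM in UNKC and 8.91 and 11.5 CPM in H7 tumours (-0.06 ± 0.30, adjusted p = 0.916).

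Around Acsbg1, 3 of 16 genes of fatty acid activation were higher (Acsl6, Acss3 and Elovl7) and 1 lower (Slc27a6), with a median of -0.20. Elovl7, a fatty acid elongase, had 17.9 and 15.6 CPM in UNKC tumours and 7.14 and 5.40 CPM in H7 tumours (log2 fold change 1.42 ± 0.22, edgeR adjusted p = 0.00914). Around Tmeff2, 3 of 12 genes of proteins with follistatin domains were higher (Fstl1, Spock3 and Tmeff1) and 2 lower (Fst and Smoc1), with a median of 0.86. Fst, follistatin itself, had 16.2 and 18.3 CPM in UNKC tumours and 100.1 and 68.8 CPM in H7 tumours (-2.29 ± 0.21, adjusted p = 0.00208). Fstl1, a secreted glycoprotein gene, had 159 and 229 CPM in UNKC tumours and 15.7 and 53.0 CPM in H7 tumours (2.50 ± 0.55, adjusted p = 0.0301).

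Around Lad1, 3 of 11 genes of hemidesmosomes and anchoring filaments were higher, among them Itga6 and Lamb3, and 1 lower (Col17a1), with a median of 0.64. Lamb3, a laminin chain of epithelial basement membranes, had 47.0 and 31.3 CPM in UNKC tumours and 5.62 and 3.84 CPM in H7 tumours, against 9.26 and 11.0 CPM in normal pancreas (log2 fold change of UNKC over H7 tumours 3.05 ± 0.29, edgeR adjusted p = 0.00226). Around Spats2l, none of 9 stress granule genes was higher and 2 were lower (Pabpc1 and Spats2), with a median of -0.25. Pabpc1, the cytoplasmic poly(A)-binding protein, had 146 and 137 CPM in UNKC tumours and 316 and 290 CPM in H7 tumours (-1.10 ± 0.19, adjusted p = 0.0132).

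Around Dsel, 6 of 22 genes of chondroitin and dermatan sulfate were higher (Chst11, Chst15, Chst3, Chsy1, Chsy3 and Csgalnact1) and 1 lower (Dcn), with a median of 0.51. The 6 encode chondroitin chain synthesis enzymes and sulfotransferases, and Dcn encodes decorin, a proteoglycan core protein. Chsy3, a chondroitin synthase, had 14.2 and 6.50 CPM in UNKC tumours and 0.203 and 0.257 CPM in H7 tumours, against 0 and 2.86 CPM in normal pancreas (log2 fold change of UNKC over H7 tumours 5.47 ± 0.73, edgeR adjusted p = 0.00526). Dcn had 65.5 and 83.0 CPM in UNKC tumours and 226 and 297 CPM in H7 tumours (-1.82 ± 0.28, adjusted p = 0.00914). Of 4 genes of the TMCC family and its partners none was called in either direction (median -0.17).

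The genes whose profile over the 6 libraries came closest to the mean profile of the 9 were sought by the distance between log2 CPM values centred on each gene's own mean. They were Dkk1 (distance 0.666), Glod5 (0.783), Gzme (0.928), Mtap (1.10) and Igfbp4 (1.10), while the 9 genes themselves lay 2.27 (Lad1) to 7.98 (Acsbg1) from their mean, so no gene of the set has the mean profile. Dkk1, a secreted Wnt inhibitor, had 1.73 and 1.73 CPM in UNKC tumours and no read elsewhere, as had Glod5 at 2.06 and 2.18 CPM and Gzme, a granzyme, at 2.22 and 1.01 CPM. Such levels lie close to the floor of 1.41 CPM in normal pancreas, so the lack of reads there says little. Mtap, methylthioadenosine phosphorylase, had 274 and 258 CPM in UNKC tumours and 2.53 and 3.79 CPM in H7 tumours, against 3.24 and 4.77 CPM in normal pancreas. Igfbp4, a binding protein of insulin-like growth factors, had 715 and 726 CPM in UNKC tumours and 10.8 and 17.8 CPM in H7 tumours, against 28.7 and 39.1 CPM in normal pancreas. These 5 were picked for their likeness, and their levels are a description.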

How the data were processed

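RNA of 6 mouse samples was sequenced, 2 in each of 3 groups set by the labels. Per the submitters' processing notes, the tools were STAR, featureCounts and DESeq2 1.18.1 with the build mm10; their settings and the strand of counting are not given in the sources used here. The authors deposited whole-number read counts for 27179 gene IDs in each library, which hold both mates of a pair (1.98 to 2.00 reads for each fragment counted by the authors, as a median over genes). The authors' deposited tables also hold TPM, log2 fold changes, p-values and adjusted p-values. Names came from these tables (16265) and RefSeq (9376), and 1538 IDs had none.

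Counts were tested with edgeR 4.0.16 in R 4.3.3 (filterByExpr, 16306 genes, TMM factors, glmQLFit with legacy = FALSE, all 6 libraries), with Benjamini-Hochberg adjustment over these genes and a limit of 0.05; the pipeline was tested on simulated data. TMM factors were 2.23 and 2.21 in UNKC, 2.07 and 2.15 in H7 and 0.179 and 0.256 in normal libraries. The replicates' log2 CPM had a correlation across genes of 0.949 in UNKC, 0.967 in H7 and 0.801 in normal libraries, and genes are not independent replicates. Errors are SE of the fit. Floors are 3 read pairs over a group (6 reads; 0.0342 CPM in UNKC, 0.0408 in H7 and 1.41 in normal libraries), and 95% intervals are exact binomial on pairs; both cover counting error only. DESeq2 1.42.0, other scalings and filters, halved counts, leaving out ribosomal RNA and Lars2, leaving out each library, fits of 4 libraries and a replicate block were alternatives. Leaving out mitochondrial ribosomal RNA and 1 unnamed gene too, and recounting calls among neighbours and list genes without each tumour library, were chosen after seeing the data. Python 3.11.15, pandas 2.3.3, SciPy 1.17.1 and matplotlib 3.10.9 made tables and figures.

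The genes, the related lists and the markers were chosen with earlier results of these data known. Besides the 9, the text names per list the largest rise and fall with at least 5 CPM, the closest relatives, the nearest tested neighbours and the 5 most similar profiles; single markers and list genes named without a value for small counts were picked with their values in view. Promoters came from RefSeq on GRCm38.p6, and all 9 genes matched. A planned protein alignment of relatives was not run; 50-base stretches shared between GENCODE M21 transcripts were counted instead. Crisp1 shared 2.41% of them with Crisp3, Tmeff2 0.165% and Tmcc2 0.123% with other genes, and the other 6 genes none. Some items of the marker and gene lists are not reported here.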

Additional observations from a re-analysis of the deposited data

How the results depend on the processing

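All 9 genes stood higher in UNKC than in H7 tumours under every alternative run. Their median log2 difference of UNKC minus H7 tumours stayed near 4.40 (4.40 with a replicate block). The genes were picked for that difference in these same libraries, so its direction was all but fixed beforehand and is no test. Calls of Crisp1, Slc5a7, Klhl1, Acsbg1 and Lad1 in UNKC tumours over normal pancreas held in all 16 alternatives. All 9 were picked for high levels in these UNKC libraries, and Crisp1, Slc5a7 and Klhl1 passed the filter only through them. That these calls held is therefore no independent test. Total counts, which leave the ribosomal RNA of the normal libraries in the scale, moved the median of all genes to 3.77 in UNKC and 3.61 in H7 tumours over normal pancreas. Higher and lower genes then numbered 13500 and 312 in UNKC and 12710 and 524 in H7 tumours over normal pancreas, and 648 were lower in UNKC than in H7 tumours. Comparing H7 tumours with normal pancreas, 4 of the 9 genes were then higher and 0 lower, and the sign turned for Tmeff2 (0.55), Lad1 (2.00), Spats2l (1.01), Dsel (1.36) and Tmcc2 (1.44). Upper-quartile factors split the calls 3702 higher and 3977 lower in UNKC and 3738 and 4395 in H7 tumours over normal pancreas and left 5 of the 9 higher in UNKC tumours; DESeq2 size factors in edgeR left 6. DESeq2 called 2717 and fits of 4 libraries 2318 genes lower in UNKC than in H7 tumours, where all 6 libraries in edgeR gave 1152; the cause was not tested.

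Leaving out 1 library gave 378 to 2456 genes higher and 184 to 2165 lower in UNKC than in H7 tumours, the lowest without H7 replicate 1. Against normal pancreas it left 5 to 9 of the 9 higher in UNKC tumours and 2 to 6 lower in H7 tumours; a group's lone library was taken to vary as the other groups do. Nothing in the labels ties same-numbered samples together, so the numbers were used as names (deviations of same-numbered samples correlated at 0.526 for UNKC and H7, -0.0232 for UNKC and normal and -0.0122 for H7 and normal libraries). With the replicate block all 9 stayed higher in UNKC tumours, 5 stayed lower in H7 tumours (Tmcc2 had an adjusted p of 0.0571), and 2038 genes were higher and 1174 lower in UNKC than in H7 tumours.

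Depth limits the comparisons with normal pancreas most, where 15.1% and 16.8% of tested genes had no read, against 0.920% and 0.521% in UNKC and 2.05% and 1.01% in H7 libraries.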
